A study of Mus musculus with 8 samples.

Results

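Striatal projection neurons were followed here through 9 of their marker genes: Penk, Tac1, Drd1, Drd2, Adora2a, Ppp1r1b, Pde10a, Rgs9 and Scn4b. These are 9 of the 34299 genes in the deposited count table, matched by gene symbol. The set was chosen by measured values of these same libraries. Scn4b had one of the largest rises from fetal to week 70 knockout brain and differed between both week 70 libraries, and the other 8 genes were listed beside it as textbook markers with those results known. The difference between ages and the difference between the week 70 libraries are therefore described without a test. The comparison of genotypes at day 15 was not itself used in the choice and was tested. Its fetal KO libraries are also those of the age contrast, so the test of Scn4b is not independent of its choice.

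The libraries were made by RNA-seq of mouse brain, labelled only as fetal brain or aging brain. The wild-type (WT) group held 3 libraries from fetuses at gestation day 15, and the knockout (KO) group of the same age held 3 libraries from fetuses without Cav1, the gene of the caveolar coat protein caveolin 1. A further 2 libraries came from KO brains at week 70. Every week 70 library carried the knockout, so age was compared within KO only and aged WT brain was not analysed here. The labels call the fetal libraries biological replicates, but name no litter, strain, knockout construct or pooling. The p-values below therefore measure the spread between these libraries. In RNA of brain tissue, fewer striatal neurons and less RNA of a gene per neuron cannot be told apart.

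Striatal projection neurons, also called medium spiny neurons, are the GABA-releasing output cells of the striatum. Direct-pathway cells carry D1-type dopamine receptors and the tachykinin peptides, and indirect-pathway cells carry D2-type dopamine receptors, an adenosine receptor and enkephalin. In both kinds of cell, receptor signals meet at cyclic AMP, whose level and effects are set by phosphodiesterases, G-protein regulators and a dopamine-regulated phosphatase inhibitor.

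Total counts ranged from 14110031 to 20833397 per library, and each of the 3 WT fetal libraries was deeper than each of the 3 KO ones. Cav1 was at 218 to 367 counts in WT fetal libraries and at 0 to 5 counts in the 5 KO libraries. All 6 fetal libraries held the X-inactivation transcript Xist at 2739 to 5404 CPM, counts scaled by library size, and each of 4 Y-linked genes at 0 to 3 counts. Week 70 replicate 1 held Xist at 525 CPM and none of the 4 Y-linked genes, and week 70 replicate 2 held 4 counts of Xist and 1137 counts of Ddx3y, so these libraries differed in sex as well. WT replicate 1 stood apart in fibroblast markers, which summed to 3855 CPM against 200 and 339 CPM in the other WT libraries and 57.0 to 111 CPM in the KO fetal libraries. WT replicate 3 stood apart in hindbrain markers, at 113 CPM against 8.34 to 30.6 CPM in the other 5 fetal libraries. Hemoglobin and other erythroid transcripts summed to 952 to 1233 CPM in WT and 3560 to 4370 CPM in KO fetal libraries. The part of depth, sex and these other tissues in the results below was not tested, except where a value without the library is given.

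At day 15, edgeR called 7 of the 9 genes between genotypes at an adjusted p under 0.05, 3 higher and 4 lower in KO. That is 77.8% of the set, beside 62.6% of the 19147 genes tested, of which 30.1% were higher and 32.5% lower. The median log2 fold change was -0.50 over the 9 genes and 0.03 over all genes tested. With a correction for transcript length and GC content, described below, these medians were 0.04 and 0.03. Tac1, Drd1 and Rgs9 were higher in KO, and Scn4b, Ppp1r1b, Pde10a and Drd2 were lower. At week 70 all 9 genes were at least 2-fold higher in replicate 1 than in replicate 2, as were 1.35% of the 14632 genes with 50 or more counts. That contrast was among the values that chose the set, so nothing is read from this share. The values by gene follow, as CPM scaled by edgeR's trimmed mean of M-values (TMM).

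**Figure D1:**
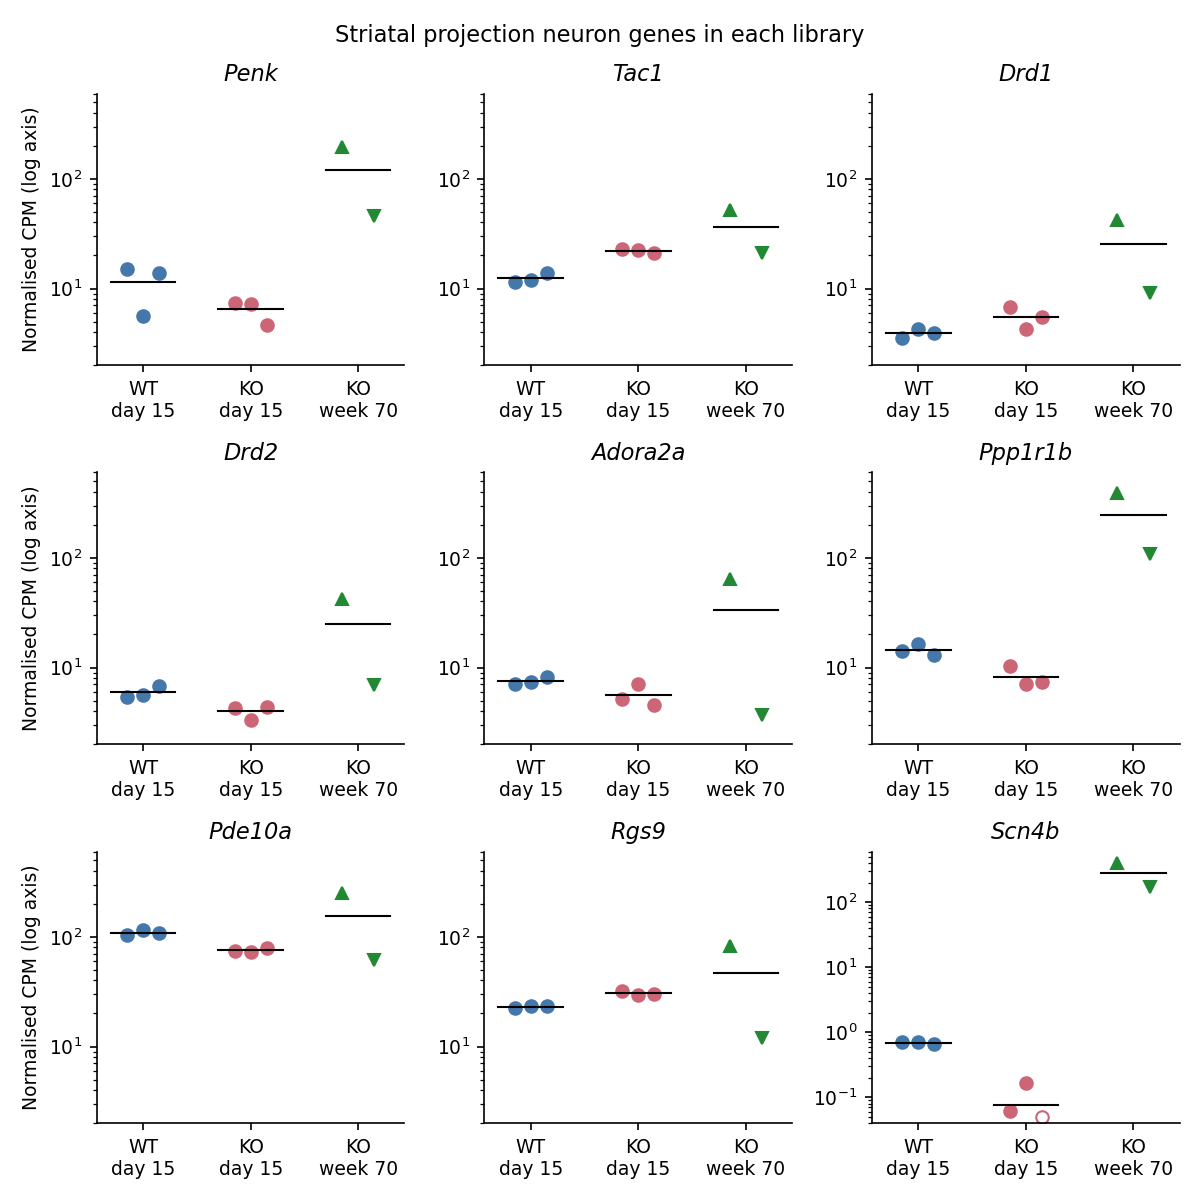
Normalised CPM of the 9 genes in each of the 8 libraries, on log axes that are shared by all panels except Scn4b. Points are libraries in replicate order from left to right, upward and downward triangles are week 70 replicates 1 and 2, lines are group means, and the open circle marks a library with 0 counts drawn at the lower edge; week 70 replicate 1 is the highest library for all 9 genes.

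The peptide genes differed from each other in their fetal pattern. Penk, which encodes proenkephalin and lies at chr4:4133531-4138819 (GRCm38, as are all positions here), was at 15.0, 5.59 and 13.9 CPM in WT replicates 1 to 3 and at 7.45, 7.28 and 4.69 CPM in the KO replicates. WT replicate 2 lay within the KO range, so the genotypes overlapped. The log2 fold change of Penk was -0.79 (SE 0.317, edgeR adjusted p = 0.0510) and did not pass the threshold. Without WT replicate 2 it was -1.12 and passed (edgeR adjusted p = 0.000676). The antisense transcript A830012C17Rik, which overlaps Penk, had 0 to 4 counts per library, and Penk itself had 81 or more. At week 70 Penk reached 195 CPM in replicate 1 and 45.5 CPM in replicate 2, both above every fetal library.

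Tac1, the gene of the substance P precursor at chr6:7554879-7565834, was at 245, 241 and 273 counts, or 11.4 to 13.7 CPM, in WT and at 378, 401 and 365 counts, or 22.9, 22.3 and 21.1 CPM, in KO fetal brain. Every KO library lay above every WT library. Group means of 12.4 ± 1.18 and 22.1 ± 0.892 CPM (SD, n = 3 each) gave a log2 fold change of 0.87 (SE 0.102, edgeR adjusted p = 2.81e-05). Tac1 remained within its fetal KO range in week 70 replicate 2, at 21.2 CPM, and was at 51.5 CPM in replicate 1.

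The dopamine receptor genes moved in opposite directions at day 15. Drd1, the receptor gene of direct-pathway neurons at chr13:54051183-54055705, was at 3.55, 4.24 and 3.92 CPM in WT and at 6.79, 4.28 and 5.45 CPM in KO. The groups did not overlap, although KO replicate 2 lay next to the highest WT library. Its log2 fold change was 0.53 (SE 0.200, edgeR adjusted p = 0.0387). This call was the least stable of the set and was lost in 11 of 15 alternatives, among them leaving out any WT library or KO replicate 1 or 3.

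Drd2, the receptor gene of indirect-pathway neurons at chr9:49340627-49408177, was at 5.42, 5.64 and 6.73 CPM in WT and at 4.24, 3.34 and 4.35 CPM in KO. Each KO library lay below each WT library. The log2 fold change was -0.54 (SE 0.179, edgeR adjusted p = 0.0229). Leaving out WT replicate 3 or KO replicate 2 ended the call, with edgeR adjusted p of 0.0752 and 0.0820. At week 70 Drd1 was at 42.0 and 9.16 CPM and Drd2 at 42.6 and 6.96 CPM in replicates 1 and 2. With TMM scaling all of these were above the fetal libraries of both genotypes. By share of total counts replicate 2 was not. Drd1 had 133 of 18924304 counts there, against 112 of 14110031 in KO replicate 1. Drd2 had 101 of 18924304, against 134 of 19414747 in WT replicate 3.

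Adora2a, at chr10:75316877-75334784, encodes the adenosine receptor that indirect-pathway neurons carry beside the D2-type receptor. It was at 7.01, 7.43 and 8.19 CPM in WT and at 5.21, 7.06 and 4.58 CPM in KO. KO replicate 2 lay above the lowest WT library, and the log2 fold change of -0.38 did not pass the threshold (SE 0.179, edgeR adjusted p = 0.0847). Without KO replicate 2 it was -0.60 and passed (edgeR adjusted p = 0.0192). Adora2a showed the widest gap of the set at week 70, with 63.8 CPM in replicate 1 and 3.65 CPM in replicate 2, which was below all 6 fetal libraries.

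Promoters are shown for Drd1, Drd2 and Tac1, the receptor and peptide genes that passed the day 15 test in opposite directions, as the 250 bases before the RefSeq start on GRCm38.p6. The Tac1 window is chr6:7554811-7555060 on the + strand, the Drd2 window is chr9:49340153-49340402 on the + strand, and the first of the Drd1 windows is chr13:54055659-54055908 on the - strand. Capitals mark matches on either strand to 3 motifs, a cyclic AMP response element variant, the GC box and the TATA box.
Tac1: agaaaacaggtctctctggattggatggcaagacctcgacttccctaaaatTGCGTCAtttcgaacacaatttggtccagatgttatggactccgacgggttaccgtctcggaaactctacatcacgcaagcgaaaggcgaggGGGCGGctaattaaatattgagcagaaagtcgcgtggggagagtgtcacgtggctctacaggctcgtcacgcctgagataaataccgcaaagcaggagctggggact
Drd2: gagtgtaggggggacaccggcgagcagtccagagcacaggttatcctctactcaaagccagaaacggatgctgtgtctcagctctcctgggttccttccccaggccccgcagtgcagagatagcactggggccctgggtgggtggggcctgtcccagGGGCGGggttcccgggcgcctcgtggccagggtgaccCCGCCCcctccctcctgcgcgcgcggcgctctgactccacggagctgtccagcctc
Drd1: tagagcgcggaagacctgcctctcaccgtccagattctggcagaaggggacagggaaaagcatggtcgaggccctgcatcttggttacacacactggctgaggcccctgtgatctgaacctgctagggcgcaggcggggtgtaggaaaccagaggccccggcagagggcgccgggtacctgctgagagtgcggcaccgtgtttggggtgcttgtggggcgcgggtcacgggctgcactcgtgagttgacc

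The response element variant was searched as TGCGTCA. The GC box was searched as GGGCGG. The TATA box was searched by its letters TATAAA, and no 2 of the matches shown overlapped. The Tac1 window held 1 response element variant, at base 52, and 1 GC box, at base 144, and had a GC content of 51.2%. Drd2 held 2 GC boxes at a GC content of 68.8%, and this Drd1 window held none of the 3 motifs at a GC content of 64%. Windows were found for 6 of the 9 genes, 8 in all, and not for Penk, Adora2a and Ppp1r1b. The response element variant was in 1, the GC box in 5 and the TATA box in 1 of these 8 windows. Over 32851 windows of the same length the shares were 1.75%, 32.7% and 12.4%. These matches describe letters only and say nothing about binding.

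Among the signalling genes, Ppp1r1b and Pde10a were lower and Rgs9 higher in KO fetal brain. Ppp1r1b, at chr11:98348404-98357796, encodes the dopamine-regulated inhibitor of protein phosphatase. It was at 14.2, 16.3 and 13.1 CPM in WT and at 10.4, 7.11 and 7.30 CPM in KO. All KO libraries lay below all WT libraries, with a log2 fold change of -0.78 (SE 0.160, edgeR adjusted p = 0.00165). Its week 70 levels of 387 and 109 CPM lay far above the fetal range in both libraries. The antisense transcript 1700003D09Rik, which overlaps Ppp1r1b, had 2 to 7 counts per library.

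Pde10a, at chr17:8525372-8986648, encodes the phosphodiesterase that degrades cyclic nucleotides in these neurons and had the most reads of the 9 genes in every fetal library. Its level was 104, 117 and 108 CPM in WT and 74.6, 73.0 and 78.6 CPM in KO. The groups were well apart, at 109.5 ± 6.44 and 75.4 ± 2.87 CPM (SD, n = 3 each), with a log2 fold change of -0.50 (SE 0.0655, edgeR adjusted p = 6.92e-05). At week 70 Pde10a was at 250.4 CPM in replicate 1 but at 62.0 CPM in replicate 2, below all 6 fetal libraries.

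Rgs9, at chr11:109225355-109298129, encodes a regulator that speeds the shut-off of G proteins behind dopamine receptors. It was at 22.4, 23.2 and 23.4 CPM in WT and at 31.8, 29.7 and 29.9 CPM in KO. Every KO library exceeded every WT library, and the log2 fold change was 0.44 (SE 0.0753, edgeR adjusted p = 0.000442). Like Adora2a and Pde10a, Rgs9 lay above the fetal range in week 70 replicate 1 (81.9 CPM) and below it in replicate 2 (12.1 CPM).

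Scn4b, at chr9:45138395-45154152, encodes a beta subunit of voltage-gated sodium channels. It was close to undetected in fetal brain, with 15, 14 and 13 counts in WT and 1, 3 and 0 counts in KO. Levels were 0.701, 0.699 and 0.653 CPM in WT and 0.0606, 0.167 and 0 CPM in KO, where 3 counts correspond to 0.167 to 0.182 CPM. The groups did not overlap, and the edgeR call was lower in KO (adjusted p = 0.00213). Low values in these KO libraries also entered the age contrast by which Scn4b was chosen. The pooled counts of 42 and 4 gave a WT level 8.86 times that of KO, with an exact 95% Clopper-Pearson interval of 3.21 to 34.0 that covers counting error only. At week 70 Scn4b reached 6071 and 2475 counts, or 400.0 and 171 CPM, the highest CPM of the 9 genes in each week 70 library.

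Genotype differences at day 15 followed GC content across all genes. The calls on these 9 genes changed under a joint offset for transcript length and GC content, whose parts were not separated. Over 18592 tested genes with a value, the log2 fold change had a Spearman correlation of -0.48 with the GC content of the longest transcript. Among the 9 genes, which share all 6 libraries, it was -0.67 as a description, from Tac1 at 42.8% and Drd1 at 46.0% GC to Adora2a at 59.2% and Ppp1r1b at 61.0%. With an offset for transcript length and GC content, which brought the correlation over all genes to -0.0066 and that over the 9 genes to -0.60, edgeR called 3 of the 9 genes, beside 51.1% of 19050 genes. Rgs9 stayed higher (log2 fold change 0.55, edgeR adjusted p = 0.000123) and Scn4b stayed lower (adjusted p = 0.0138), while Penk now passed as lower (-0.84, adjusted p = 0.0388).

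The calls of the other 5 genes ended under this correction. Tac1 was at a log2 fold change of 0.27 (edgeR adjusted p = 0.0531), and Drd1 was at 0.50 (adjusted p = 0.0592). Drd2 was at -0.18 and Ppp1r1b at -0.24 (edgeR adjusted p = 0.448 and 0.226). Pde10a moved to 0.04 and Adora2a, not called in either fit, to 0.20, both with the sign turned (edgeR adjusted p = 0.685 and 0.350). Upper-quartile scaling placed the median of all genes at 0.20 instead of 0.03, turned no sign among the 9 genes and ended the call of Drd2 (-0.37, edgeR adjusted p = 0.0959).

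**Figure D2:**
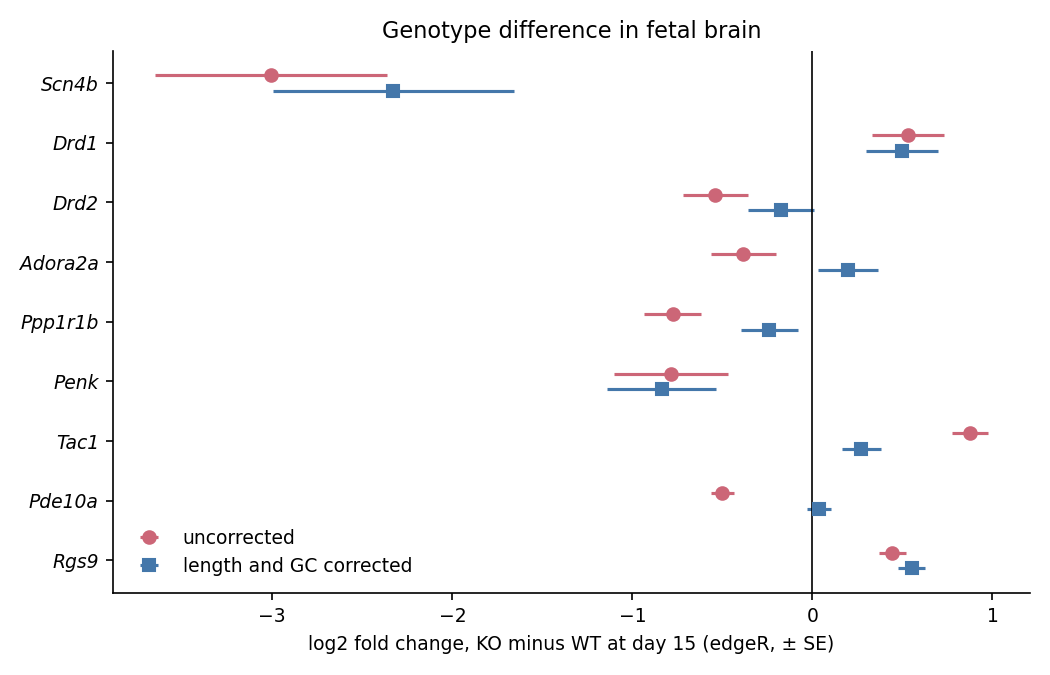
Log2 fold change of KO over WT at day 15 for the 9 genes from edgeR on 3 libraries per genotype, with bars of 1 SE, without (circles) and with (squares) the offset for transcript length and GC content. Under the offset Rgs9 is at 0.55 and Penk at -0.84, while Pde10a moves from -0.50 to 0.04; the value of Scn4b rests on 4 KO counts.

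Ratios between 2 genes of 1 library do not depend on the scaling of libraries, and 4 were computed after the values had been seen. The Drd1 to Drd2 count ratio was 0.655, 0.752 and 0.582 in WT and 1.60, 1.28 and 1.25 in KO. In WT the D2-type gene had more counts in each library, and in KO the D1-type gene did. Counts do not rank the genes, since the merged exons of Drd1 span 3628 bases and those of Drd2 2547. In TPM, which scales by this length, Drd2 was above Drd1 in KO replicates 2 (4.17 and 3.75) and 3 (5.33 and 4.69). In KO replicate 1 it was below (5.20 and 5.84). The Tac1 to Penk count ratio was 0.766, 2.15 and 0.986 in WT and 3.07, 3.06 and 4.51 in KO, again without overlap. A two-sided exact permutation test gave p = 0.1 for either ratio, the smallest that 3 against 3 libraries allow, and 0.2 after Benjamini-Hochberg adjustment over the 4 ratios.

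The other ratios overlapped between the genotypes. Drd2 to Adora2a ranged from 0.758 to 0.822 in WT and from 0.472 to 0.949 in KO (exact permutation p = 0.9). Ppp1r1b to Pde10a ranged from 0.121 to 0.140 in WT and from 0.0929 to 0.139 in KO (exact permutation p = 0.3). At week 70 the Drd1 to Drd2 ratio was 0.986 and 1.32 and the Tac1 to Penk ratio 0.263 and 0.464 in replicates 1 and 2, so the latter was below all 6 fetal libraries in both. The members of each pair differ in GC content, by the values given above and 55.0% for Drd2 and 52.7% for Penk, and the part of GC in these ratios was not tested.

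**Figure D3:**
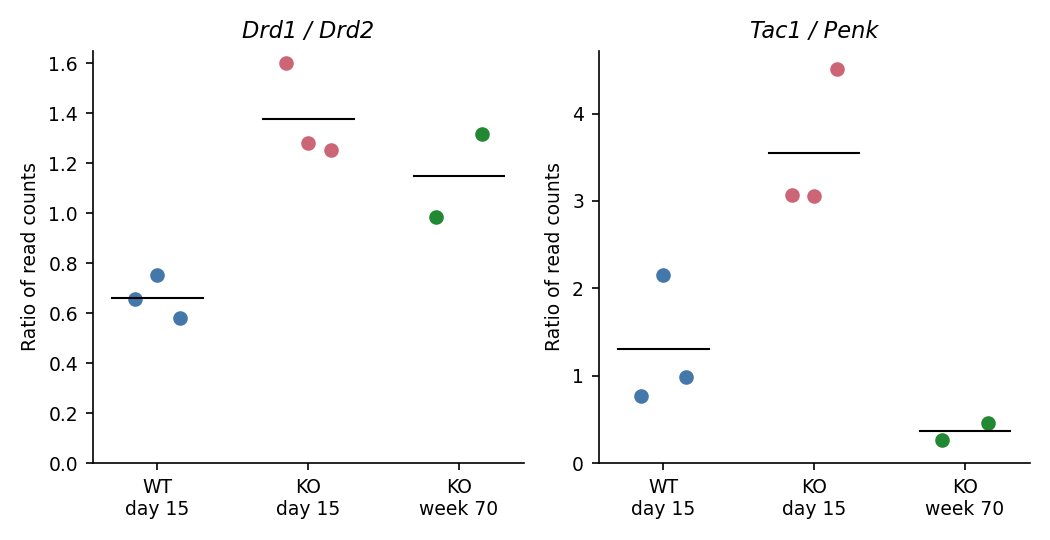
Ratio of read counts within each library for Drd1 over Drd2 (left) and Tac1 over Penk (right), on linear axes from 0; points are libraries in replicate order and lines are group means. Both ratios are higher in all 3 KO than in all 3 WT fetal libraries, and Tac1 over Penk is lowest in the 2 week 70 libraries.

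Genes known from the same neurons were called in both directions in KO fetal brain, while the called transcription factors of their lineage were all lower. Of 19 tested genes on a list of other striatal projection neuron genes, 2 were higher and 8 lower (edgeR), with a median log2 fold change of -0.45. The share called was 52.6%, beside 62.6% of all genes tested. Adcy5, the adenylyl cyclase of these cells, was at 96.8 ± 7.96 CPM in WT and 35.7 ± 6.89 CPM in KO (SD, n = 3 each), a log2 fold change of -1.40 (edgeR adjusted p = 2.23e-06). The kinase gene Dclk3 was at -1.37 (edgeR adjusted p = 0.000264). With the offset for length and GC, 5 genes of this list were higher and 4 lower, and its median was 0.02, so the balance towards lower levels did not hold. Adcy5 was then at -0.26 and not called (edgeR adjusted p = 0.0570), while Dclk3 stayed lower at -0.90 (adjusted p = 0.00471).

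Of 18 striatal lineage transcription factors, 13 were lower, none was higher, and 5 (Dlx1, Dlx6, Isl1, Foxp2 and Ikzf1) were not called. The share called was 72.2%, beside 62.6% of all genes tested, of which 32.5% were lower. The median log2 fold change of the 18 factors was -0.94, and with the offset it was -0.80, with 13 lower and 2 higher. Gsx1, a homeobox gene of ganglionic eminence progenitors, was at 4.34 ± 0.201 CPM in WT and 1.01 ± 0.248 CPM in KO (SD, n = 3 each), a log2 fold change of -2.06 (edgeR adjusted p = 2.16e-05) and of -1.59 with the offset. Zfp503, a zinc finger gene of the developing striatum, was at 42.6 ± 5.33 and 10.2 ± 2.16 CPM, a log2 fold change of -2.02 (edgeR adjusted p = 7.87e-07) and of -1.19 with the offset.

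Markers of other brain regions were also called between genotypes, and before the offset each list median was negative. Of 11 cortical projection neuron genes 7 were lower and 2 higher (edgeR, median log2 fold change -0.65), of 8 cerebellar genes 5 were lower and 2 higher (-0.71), and of 6 thalamic genes 4 were lower and none higher (-0.76). With the length and GC offset these medians were 0.04, -0.31 and -0.53, with 4 lower and 3 higher cortical, 3 lower and 2 higher cerebellar, and 3 lower and no higher thalamic genes. Of 4 tested hippocampal genes 3 were lower and none higher (median -1.18, and -0.65 with the offset). Of 9 hypothalamic genes 1 was higher and 1 lower (median -0.03), and of 8 hindbrain genes 2 were lower and none higher (-0.94). The shares called were 81.8%, 87.5%, 66.7% and 75% for the cortical, cerebellar, thalamic and hippocampal lists. Those of the hypothalamic and hindbrain lists were 22.2% and 25%, beside 62.6% of all genes tested. Of 2 olfactory bulb genes 1 was higher (-0.15). No test compared these lists with the striatal ones.

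Lists of general cell types also moved with genotype. Among 7 general neuron genes 5 were lower and 2 higher in KO (edgeR, median log2 fold change -0.34), and 2 were lower and none higher with the offset (0.03). Of 5 endothelial genes 4 were lower (median -1.37, and -0.98 with the offset, again with 4 lower), with sums over the 6 listed genes of 114 to 156 CPM in WT and 38.2 to 47.4 CPM in KO. Of 6 astrocyte genes 3 were lower and 1 higher (-0.30, and -0.42 with the offset), with sums of 235 to 273 CPM in WT and 111 to 123 CPM in KO. All 5 erythroid genes were higher in KO, with a median of 1.42, and of 1.58 with the offset. The shares called were 100% (neuron), 80% (endothelial), 66.7% (astrocyte) and 100% (erythroid), beside 62.6% of all genes tested. The part of these cell types in the values of the 9 genes was not tested.

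Relatives of the 9 genes were split in direction. Of 17 tested relatives, 4 were higher and 5 lower, with a median log2 fold change of -0.05. The share called was 52.9%, and 40% among the peptide receptors below, beside 62.6% of all genes tested. Pdyn, the prodynorphin gene of direct-pathway neurons, was lower at 2.60 ± 0.385 CPM in KO against 5.01 ± 0.461 CPM in WT (SD, n = 3 each), a log2 fold change of -0.91 (edgeR adjusted p = 0.00172), and it stayed lower with the offset (-0.75, adjusted p = 0.00643). The phosphodiesterase gene Pde5a was at -0.68 (edgeR adjusted p = 7.66e-05), and at -0.25 with the offset, still called (adjusted p = 0.0253). Of 5 peptide receptor genes 1 was higher and 1 lower, the latter being Tacr1, the substance P receptor, at -0.84 (edgeR adjusted p = 0.0298). Tacr1 overlapped between genotypes, with 2.94 CPM in WT replicate 1 and 3.27 CPM in KO replicate 1, and with the offset its call ended (-0.41, edgeR adjusted p = 0.271).

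Per transcript length, the order of the 9 genes changed between groups. In TPM, a level scaled by merged exon length and library total, Pde10a led in WT fetal brain at 31.6 ± 1.60, followed by Penk at 26.1 ± 11.8, Ppp1r1b at 18.4 ± 1.97, Tac1 at 13.5 ± 1.29 and Rgs9 at 13.3 ± 0.243 (SD, n = 3 each). Adora2a at 9.13 ± 0.721 TPM, Drd2 at 8.63 ± 1.03 TPM, Drd1 at 3.99 ± 0.322 TPM and Scn4b at 0.509 ± 0.0197 TPM came last. The neighbours Pde10a and Penk, Penk and Ppp1r1b, Tac1 and Rgs9, and Adora2a and Drd2 overlapped across libraries in this order. Within each WT library, Adora2a was above Drd2.

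In KO fetal brain Tac1 led at 20.4 ± 0.882 TPM, before Pde10a at 18.4 ± 0.576 TPM and Rgs9 at 15.0 ± 0.493 TPM (SD, n = 3 each). Penk at 12.5 ± 3.02 TPM and Ppp1r1b at 8.85 ± 1.90 TPM overlapped across libraries, with Penk above Ppp1r1b within each KO library. Adora2a at 5.77 ± 1.39 TPM, Drd2 at 4.90 ± 0.636 TPM and Drd1 at 4.76 ± 1.04 TPM followed, and in this order Adora2a overlapped with Drd2 and Drd2 with Drd1. Scn4b was last at 0.0481 ± 0.0540 TPM.

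At week 70 Ppp1r1b (339 and 101 TPM in replicates 1 and 2), Penk (306 and 75.6 TPM) and Scn4b (206 and 92.8 TPM) led in both libraries. Below them lay Pde10a at 49.9 and 13.1 TPM, Adora2a at 53.4 and 3.23 TPM, Tac1 at 38.8 and 16.9 TPM, Drd2 at 42.8 and 7.41 TPM, Rgs9 at 32.8 and 5.12 TPM and Drd1 at 29.6 and 6.85 TPM. With a library-to-library gap of this size, all neighbours in mean TPM overlapped across libraries except Scn4b and Pde10a. Within each week 70 library, Ppp1r1b was above Penk and Drd2 above Rgs9. Scn4b thus went from last in both fetal groups to rank 3 by mean TPM.

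Between day 15 and week 70 in KO brain, 5 of the 9 genes (Scn4b, Drd1, Drd2, Ppp1r1b and Penk) lay above every fetal KO library in both aged libraries. The same held for 42.3% of 20000 genes, and since the age contrast was used to choose the genes nothing is read from this count. Without week 70 replicate 2 the count was 9 of 9, and with scaling by total counts in place of TMM it was 4. Pooled counts of Scn4b gave a week 70 level 3724 times that of fetal KO brain, with an exact 95% Clopper-Pearson interval of 1454 to 13671 for counting error, since the fetal group held 4 counts.

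Over the fetal KO mean, Ppp1r1b was 46.9-fold higher in week 70 replicate 1 and 13.2-fold higher in replicate 2, and Penk was 30.2-fold and 7.03-fold higher. Drd2 was 10.7-fold and 1.75-fold higher, and Drd1 was 7.63-fold and 1.66-fold higher. For the remaining 4 genes the aged libraries fell on different sides. Adora2a was 11.4 times the fetal KO mean in replicate 1 and 0.650 times in replicate 2, Pde10a 3.32 and 0.823 times, Tac1 2.33 and 0.957 times, and Rgs9 2.69 and 0.396 times.

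Against WT fetal brain, the order of the age differences was similar, with 17.1-fold for Ppp1r1b, 10.5-fold for Penk and 6.55-fold for Drd1 by the mean of the week 70 libraries. That contrast also carries the genotype and is given as values only. On the list of other striatal projection neuron genes 17 of 19 lay above all fetal KO libraries at week 70, while 13 of 18 striatal lineage transcription factors lay below them and 2 above. Over the 20000 genes compared, 8457 lay above and 9117 below all fetal KO libraries. Oligodendrocyte and astrocyte markers, by comparison, were above all fetal KO libraries for 7 of 7 and 6 of 6 genes.

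The week 70 libraries differed from each other in all 9 genes, in 1 direction. With 1 library on each side there is no test, and the exact 95% Clopper-Pearson intervals cover counting error only. Adora2a was 17.5-fold higher in replicate 1 (interval 13.3 to 23.5), rank 4 of the 14632 genes. Rgs9 was 6.79-fold higher, at rank 19, and Drd2 6.12-fold higher (4.95 to 7.62).

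The next group, between 3.5-fold and 4.6-fold, held Drd1 at 4.58-fold (3.79 to 5.56), Penk at 4.29-fold (3.94 to 4.68), Pde10a at 4.04-fold (3.75 to 4.35) and Ppp1r1b at 3.56-fold (3.36 to 3.76). Tac1 at 2.43-fold (2.13 to 2.79) and Scn4b at 2.35-fold (2.24 to 2.46) showed the smallest gaps, at ranks 103 and 114. The median over the 9 genes was 4.29, beside 0.985 over all genes counted. No member lay under the 2-fold line, and a line of 3-fold left out Tac1 and Scn4b.

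Indirect-pathway genes did not form a separate group from direct-pathway genes by this ratio. Adora2a and Drd2 were among the 3 widest gaps, but Penk, the enkephalin gene of the same cells, lay next to Drd1 and within its interval. Tac1 had a smaller ratio than Drd1, and their intervals did not overlap. Summed over the 9 genes, the level was 1515 CPM in week 70 replicate 1 and 440 CPM in replicate 2, against 184 to 192 CPM in WT and 154 to 163 CPM in KO fetal libraries.

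**Figure D4:**
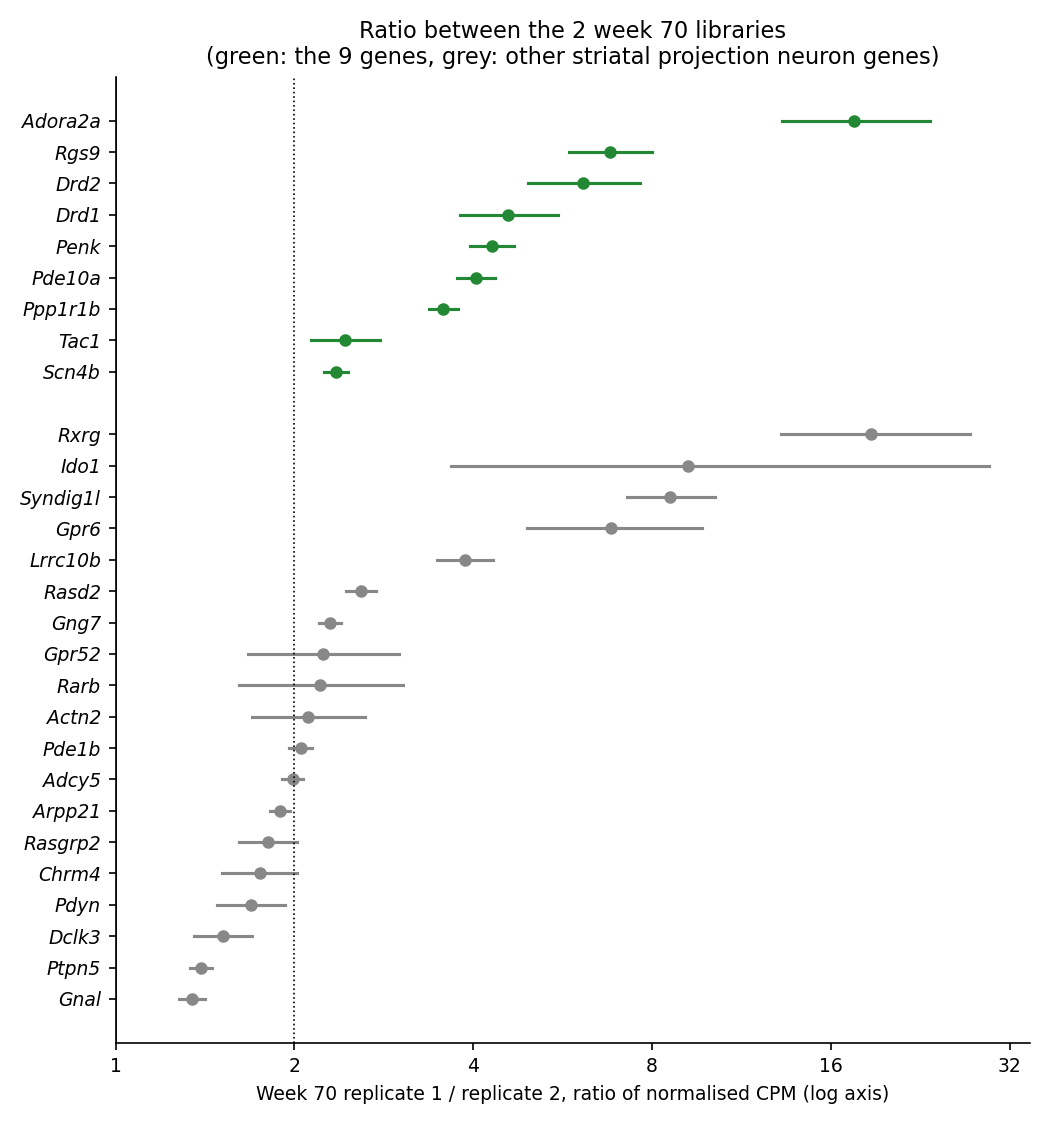
Ratio of normalised CPM, week 70 replicate 1 over replicate 2, on a log axis, for the 9 genes (green) and 19 other striatal projection neuron genes (grey), with exact 95% Clopper-Pearson intervals for counting error and a dotted line at 2-fold. All ratios shown lie above 1, from 1.34 for Gnal to 18.7 for Rxrg.

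The other genes of these neurons lay on the same side. All 20 genes of that list were higher in replicate 1, 12 of them at least 2-fold, with a median ratio of 2.16. Rxrg, a retinoid receptor gene, had the widest gap at 42.6 against 2.27 CPM, 18.7-fold (13.2 to 27.4), and Syndig1l was at 89.8 against 10.5 CPM, 8.57-fold (7.25 to 10.2). Between them in rank lay Ido1, at 9.18-fold, on 48 and 5 counts (3.67 to 29.5). Relatives of the 9 genes had a median ratio of 0.984, and none of 16 was 2-fold higher in replicate 1. Among them, Pdyn was at 42.2 and 24.9 CPM, 1.69-fold higher in replicate 1, and Pomc, the peptide gene of hypothalamic and pituitary cells, was 22.9-fold higher in replicate 2 (16.4 to 32.7). Striatal lineage transcription factors had a median of 1.25, with Six3 2.26-fold higher in replicate 1 and Sp8 2.03-fold higher in replicate 2.

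Some marker lists of other regions, but not all, differed in the opposite direction. Over all genes counted, 2.26% were at least 2-fold higher in replicate 2. Choroid plexus genes were at least 2-fold higher in replicate 2 for 7 of 7 genes and summed to 2415 CPM there against 73.3 CPM in replicate 1. Hippocampal genes were 2-fold higher in replicate 2 for 5 of 7 genes (sums of 200 and 74.1 CPM), thalamic genes for 3 of 6 (192 and 81.4 CPM) and cerebellar genes for 4 of 7 with 1 higher in replicate 1 (148 and 71.4 CPM). The 4 were Zic1 (276 and 1175 counts in replicates 1 and 2), Cbln1, En2 and Barhl1, and the 1 was Cbln3 (56 and 26). Named after their values were seen, Pcp2 (8 and 5 counts) and Gabra6 (11 and 3) were too low to be counted. The amount of cerebellum in either library was not tested. Cortical projection neuron genes, at sums of 2706 and 2610 CPM with a median ratio of 1.02, were 2-fold apart for none of 11 genes. Hypothalamic genes had a median ratio of 1.10, with 3 of 4 counted genes higher in replicate 1 and 1 at least 2-fold higher in replicate 2. Olfactory bulb (2 genes counted) and hindbrain (1 gene counted) markers held no gene 2-fold apart. Neuron, oligodendrocyte and astrocyte markers had median ratios of 1.04, 0.984 and 0.949, with no gene 2-fold apart.

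Immediate early genes, which neurons switch on with activity, were 2-fold higher in replicate 1 for 8 of 9 genes, with sums of 1848 and 508 CPM and a median ratio of 5.35. Their ratios reached 12.6 for Egr2 and 9.49 for Arc. Replicate 1 also held Xist and replicate 2 the Y-linked genes, so sex, the makeup of the sampled tissue and the state of the animal cannot be told apart from each other for these libraries. The part of each in the gap of the 9 genes was not tested.

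**Figure D5:**
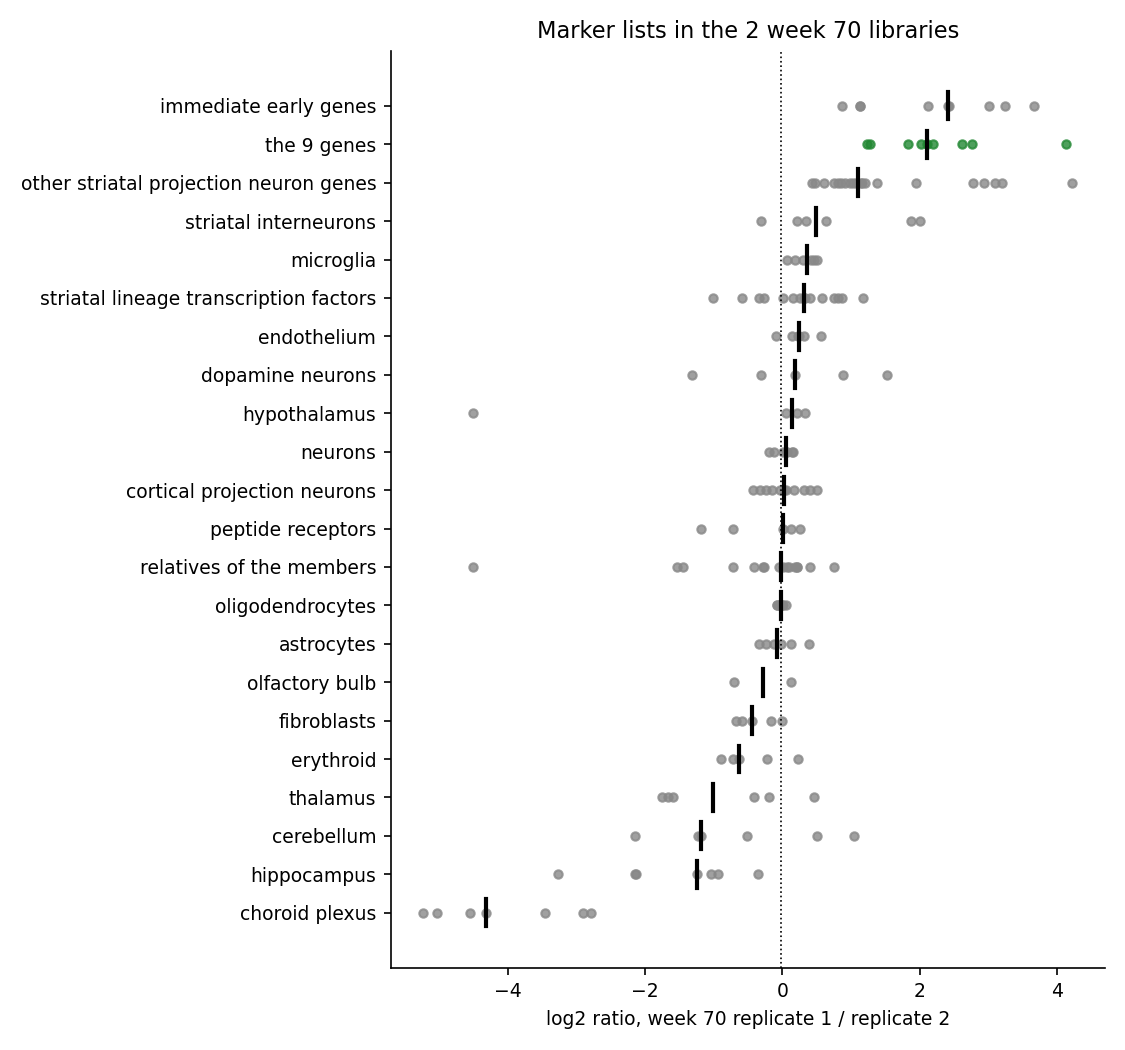
Log2 ratio of week 70 replicate 1 over replicate 2 for each gene (points) of the 9 genes and the other marker lists, with the list median as a bar. The dotted line is the median of all genes counted (-0.02). Points are genes with at least 50 summed counts. Barhl1, at 0 counts in replicate 1, and the hindbrain list, with 1 gene counted, are not shown. The 9 genes and the other striatal projection neuron genes lie entirely to the right of the line, as do the immediate early and microglia genes. The choroid plexus and hippocampal genes lie entirely to the left.

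The genes whose profile over the 8 libraries was most like the mean profile of the 9 were ranked by the root mean square distance of centred log2 CPM among 12816 genes. The 10 nearest, at distances of 0.40 to 0.46, included Syndig1l, Pde7b, Gpr6, Sertad1, Rims1, Ttc9b, Shank3, Susd1 and Fxyd7. Syndig1l and Gpr6 are on the list of other striatal projection neuron genes. The 9 genes themselves lay at 0.42 (Drd2) to 3.06 (Scn4b) from their own mean profile. All of them except Drd2 were less like it than each of these 10.

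Syndig1l was at 8.41, 9.33 and 11.7 CPM in WT, at 6.36, 6.45 and 5.04 CPM in KO fetal brain, and at 89.8 and 10.5 CPM at week 70. Each fetal KO library lay below each WT library, with a log2 fold change of -0.68 (edgeR adjusted p = 0.00472). With the offset for length and GC, Syndig1l was at -0.10 and not called (edgeR adjusted p = 0.621). Pde7b, another cyclic AMP phosphodiesterase gene, was at 1244 and 725 counts in week 70 replicates 1 and 2, a ratio of 1.64, and Shank3, a postsynaptic scaffold gene, had a ratio of 1.39. The ratio was 6.83 for Gpr6 and 2.36 for Sertad1, and from 1.39 to 1.64 for Pde7b, Rims1, Ttc9b, Shank3, Susd1 and Fxyd7.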

How the data were processed

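Raw read counts were deposited by the authors as 1 whole table keyed by Ensembl gene and made, per the submitters' processing notes, with FastQC, cutadapt, Trimmomatic, HISAT2, featureCounts and edgeR and naming the builds GRCm38 and GRCm39. Versions, strand setting and the handling of multi-mapped reads are not given in the sources used here. Groups followed the sample titles, and 351 genes without a symbol stayed in the tests. Genotypes were compared at day 15 with edgeR 4.0.16 in R 4.3.3 (filterByExpr, TMM, two-sided quasi-likelihood F-test, Benjamini-Hochberg over all genes, threshold 0.05), after the script was tested on simulated data. Levels are CPM with TMM factors over the 8 libraries, and 3 counts served as the detection floor. TPM and positions used GENCODE M21 on GRCm38 (33365 of 34299 identifiers matched). A smooth offset for transcript length and GC content (mgcv 1.9.3), DESeq2 1.42.0, other scalings and filters, a replicate block and leaving out libraries were the alternatives. Week 70 ratios required 50 summed counts. The members and gene lists were chosen with earlier results of these data known. Named genes were the 9 members, the 10 genes of most similar profile, and from each list the 2 called genes with the largest fold change and the 2 with the largest week 70 ratio, with a mean of at least 50 counts. Promoter sequences are from RefSeq. An item that the rule would name is not reported here. Intervals and floors cover counting error only.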

Additional observations from a re-analysis of the deposited data

How the results depend on the processing

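The count of the 9 genes called at day 15, 7 in edgeR, was 5 to 7 on leaving out single libraries and 6 or 7 with other scalings, other filters and DESeq2. It was 1 (Tac1) with all 8 libraries in 1 fit, 3 with the length and GC correction and 2 with that correction and a replicate block. For the other striatal projection neuron genes, 10 calls became 6 with all 8 libraries in 1 fit. The correction turned the sign of Adora2a (0.20, and 0.18 with the block) and of Pde10a (0.0357, and 0.0378 with the block). Same-numbered WT and KO libraries correlated at -0.160, -0.190 and -0.176 in their deviations, so the numbers were not taken as pairs, and the replicate block alone left 6 of the 9 genes and 11184 of all genes called, with Drd1 lost (edgeR adjusted p = 0.0784). Upper-quartile scaling called 7627 genes higher and 4915 lower, against 5768 and 6225 with TMM. The number of genes above all fetal KO libraries at week 70 was 5 to 9 on leaving out single libraries and 9 without week 70 replicate 2. With scaling by total counts it was 4. The share of all genes past the line between the week 70 libraries, 1.35%, was 4.37% at 1.5-fold, 0.444% at 3-fold and 0.525% with at least 200 summed counts. Ranking by Pearson correlation shared 2 of the 10 most similar genes. Scn4b, with 4 fetal KO counts, is limited by depth, and each week 70 contrast by 1 library a side.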

Other observations

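Cells and fibres that meet striatal projection neurons were also followed by marker lists. Of 10 dopamine neuron genes at day 15, 5 were lower and 2 higher in KO, among them En1 at 17.5 ± 1.78 CPM in WT and 5.51 ± 1.27 CPM in KO (SD, n = 3 each, log2 fold change -1.62, edgeR adjusted p = 1.00e-05) and Lmx1b at -1.74 (edgeR adjusted p = 0.00107). With the length and GC offset En1 was at -1.12 and Lmx1b at -0.89 (edgeR adjusted p = 0.000199 and 0.0348). Lmx1b was at 12.9, 13.4 and 27.0 CPM in the WT replicates, the highest in replicate 3, which stood apart in hindbrain markers. Both are transcription factor genes of midbrain development. Of 8 striatal interneuron genes 2 were higher and 2 lower, and Nos1, the neuronal nitric oxide synthase gene, was at 50.4 ± 0.665 CPM in WT and 16.7 ± 1.09 CPM in KO (SD, n = 3 each, log2 fold change -1.56, edgeR adjusted p = 5.58e-08). With the same offset Nos1 was at -0.67 (edgeR adjusted p = 3.18e-05). The shares called were 70% for the dopamine neuron list and 50% for the interneuron list, beside 62.6% of all genes tested.

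Between the week 70 libraries, genes of cholinergic interneurons, named after their values were seen, were higher in replicate 1. Chat was at 63 and 15 counts in replicates 1 and 2, a ratio of 4.02 (exact 95% Clopper-Pearson interval 2.26 to 7.60), and the choline transporter gene Slc5a7 was at 77 and 20 counts, a ratio of 3.68 (2.23 to 6.36). The peptide genes Sst and Npy, of interneurons that are also found in cortex, had ratios of 1.26 (1.21 to 1.32) and 1.56 (1.44 to 1.69).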
